A study of Mus with 6 samples.

Results

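The core glycolytic enzymes described here are 10 genes, 1 for each step from glucose to pyruvate, of the 35304 Ensembl gene IDs counted in the series. They were chosen by name and not by their values: Hk2, Gpi1, Pfkl, Aldoa, Tpi1, Gapdh, Pgk1, Pgam1, Eno1 and Pkm, each tied to 1 Ensembl ID. RNA sequencing measured their mRNA in 6 samples of the mouse mammary carcinoma line 4T1, grown in RPMI medium with fetal bovine serum. The untreated group (3 samples) received no agent per the labels, which name no vehicle, and the IPA group (3 samples) received isopimaric acid, a plant resin diterpenoid, at 10 µg/mL for 24 h. No genotype or other agent is named for either group. Whether replicates were separate cultures is not labelled, so the spread behind each p-value may be technical only.

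Glycolysis splits glucose into pyruvate in the cytosol and yields ATP without oxygen. The first steps spend ATP to make and split a doubly phosphorylated sugar, and the later steps recover more ATP and NADH. Many tumour cells, mammary carcinoma cells among them, run the pathway at a high rate even with oxygen present, and transcription factors such as HIF-1 and MYC are known to raise several of its genes. The series title places the study in calcium and oxidative phosphorylation pathways, the latter being the other main source of ATP in the cell.

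Library totals ran from 3410411 counts (IPA replicate 1) to 58924711 (untreated replicate 2). The library of untreated replicate 2 differed most from the rest: its correlations of log2 CPM (counts scaled to a common library total) across genes were 0.781 to 0.817, against 0.919 to 0.987 among the other 5. The comparisons of the groups below are therefore given with and without it. The lowest count of any of the 10 genes in any library was 582, for Pfkl in IPA replicate 1, far above the 3 counts taken as the floor of detection. Levels are given as TMM-scaled CPM, that is, CPM after each library total is multiplied by its factor from the trimmed mean of M values (TMM), and are compared only within a gene, since gene lengths were not accounted for. In bulk RNA a smaller number of cells expressing a gene and less of its RNA per cell cannot be told apart, and the epithelial markers of the line were not checked here, because their IDs could not be matched to names.

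In the comparison of IPA with untreated cells, 0 of the 10 glycolytic mRNAs passed the edgeR test, with all 6 libraries or without untreated replicate 2. Of all tested IDs, 0% and 3.46% passed. Pgk1, which encodes phosphoglycerate kinase, had the most negative fold change in both comparisons. It was the only 1 of the 10 whose TMM-scaled levels did not overlap between the groups over all 6 libraries. Of all tested IDs, 10.7% had IPA below without overlap and 9.5% above. The other 9 of the 10 genes overlapped, and the direction of 4 of the fitted fold changes turned with the inclusion of untreated replicate 2. The values by library follow, in the order of the pathway, with each gene's position taken by symbol from RefSeq on the build GRCm38.p6.

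Hk2 (ENSMUSG00000000628), at 82725025 to 82774454 on chromosome 6, encodes hexokinase 2, which traps glucose in the cell as glucose 6-phosphate. Its TMM-scaled CPM was 165, 113 and 183 in untreated replicates 1, 2 and 3, and 183, 199 and 180 in IPA replicates 1, 2 and 3. Untreated replicate 2 was the low library, and the IPA values lay around that of untreated replicate 3. On library totals alone, without TMM, the levels did not overlap: 168, 85.4 and 187 CPM untreated against 203, 216 and 190 CPM with IPA. On that scale 15.7% of all tested IDs had IPA above without overlap, and 19.8% without untreated replicate 2.

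Gpi1 (ENSMUSG00000036427), at 34201327 to 34230336 on chromosome 7, encodes the isomerase that turns glucose 6-phosphate into fructose 6-phosphate. In the untreated replicates the TMM-scaled CPM was 991, 459 and 1195, and with IPA 1046, 1128 and 941. The IPA range ran across the value of untreated replicate 1, and untreated replicate 2 was lower than any other library. Pfkl (ENSMUSG00000020277), at 77986947 to 78009807 on chromosome 10, encodes the liver-type subunit of phosphofructokinase, the main control point of the pathway. Its levels were 133, 95.03 and 204 untreated and 153, 186 and 144 with IPA, so that all 3 IPA values fell between untreated replicates 1 and 3.

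Aldoa (ENSMUSG00000030695), at 126795234 to 126800994 on chromosome 7, encodes the aldolase that splits the doubly phosphorylated sugar into triose phosphates. Aldoa stood at a TMM-scaled CPM of 854, 657 and 1167 untreated and 814, 871 and 729 with IPA. Tpi1 (ENSMUSG00000023456), at 124810586 to 124814158 on chromosome 6, encodes the isomerase that interconverts those trioses. Its levels were 220, 473 and 343 untreated and 227, 237 and 214 with IPA. For Tpi1, unlike the 4 genes before it, untreated replicate 2 was the highest library, and the IPA values clustered around untreated replicate 1.

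Gapdh (ENSMUSG00000057666), at 125161852 to 125166467 on chromosome 6, encodes the dehydrogenase that makes NADH and is widely used as a reference gene in expression assays. The TMM-scaled CPM of Gapdh was 236, 126 and 318 untreated and 241, 241 and 207 with IPA. The group means were 227 ± 96.6 untreated and 230 ± 19.4 with IPA (SD, n = 3 each), and the untreated libraries spanned a 2.53-fold range.

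Pgk1 (ENSMUSG00000062070), at 106187100 to 106203699 on chromosome X, encodes phosphoglycerate kinase, which makes the first ATP of the later phase. Its TMM-scaled CPM was 930, 2036 and 1168 untreated and 836, 782 and 671 with IPA. All 3 IPA libraries lay below all 3 untreated libraries, also on library totals alone, where the values were 946, 1536 and 1195 CPM untreated and 930, 846 and 709 CPM with IPA. On library totals 6.38% of all tested IDs had IPA below without overlap, and 13.9% without untreated replicate 2. The gap between the closest libraries, untreated replicate 1 and IPA replicate 1, was small beside the spread within either group on library totals. On the TMM scale these 2 libraries stood at 930 and 836, where the SD was 582 untreated and 84.1 with IPA. Untreated replicate 2 was the highest library, as for Tpi1.

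Pgam1 (ENSMUSG00000011752), at 41911871 to 41918665 on chromosome 19, encodes the mutase that moves the phosphate of phosphoglycerate. Pgam1 stood at a TMM-scaled CPM of 520, 317 and 680 untreated and 462, 519 and 460 with IPA. Without untreated replicate 2 the IPA values were all below the untreated ones, though IPA replicate 2 was nearly level with untreated replicate 1. Eno1 (ENSMUSG00000063524), at 150236708 to 150248879 on chromosome 4, encodes alpha-enolase, which makes phosphoenolpyruvate. Its levels were 882, 1005 and 1146 untreated and 788, 924 and 855 with IPA. Untreated replicate 2 lay between the other untreated libraries here, but on library totals alone it was the lowest of the 6, at 758 CPM.

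Pkm (ENSMUSG00000032294), at 59656576 to 59679372 on chromosome 9, encodes the muscle-type pyruvate kinases, which make pyruvate and ATP. Its TMM-scaled CPM was 2208, 1001 and 2805 untreated and 2225, 2414 and 2291 with IPA. The 3 IPA values lay between untreated replicates 1 and 3, and untreated replicate 2 was far below the rest. The splice forms M1 and M2 of Pkm share this ID, so the counts do not separate them.

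**Figure D1:**
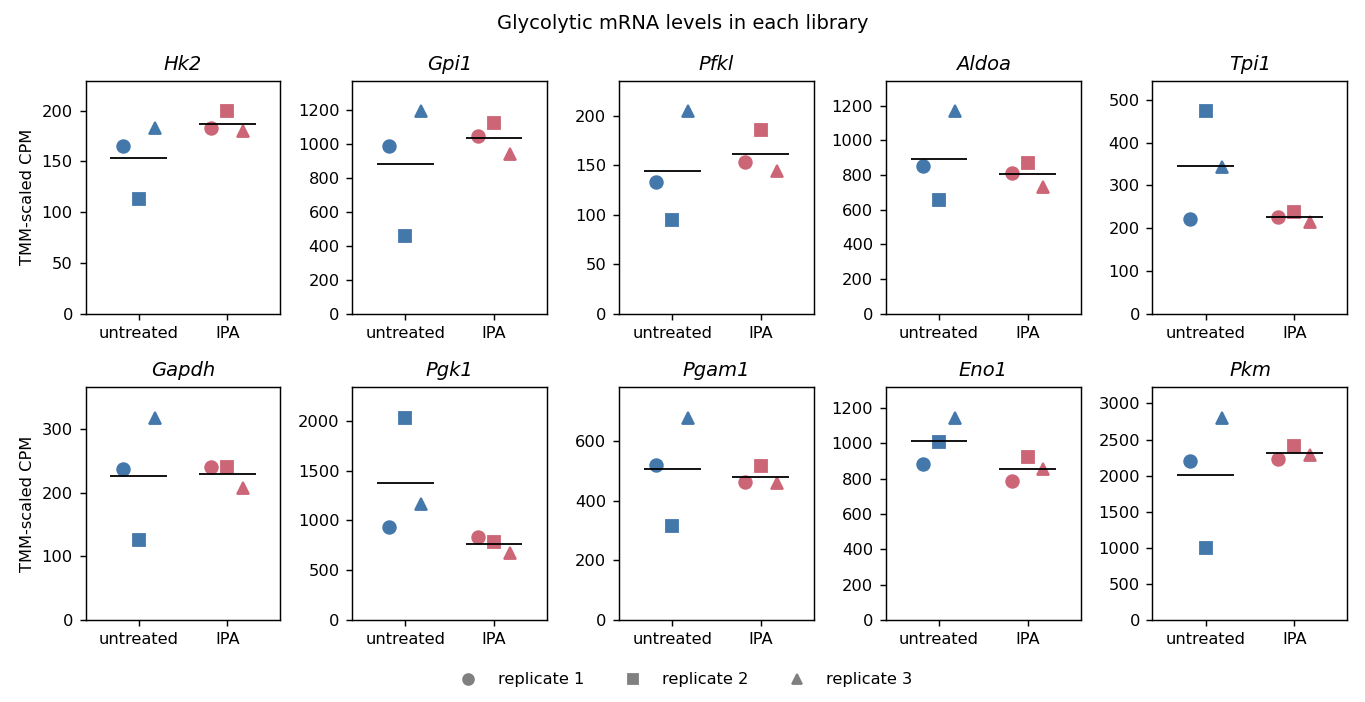
TMM-scaled CPM (vertical axis, from 0) of each of the 10 genes in the 3 untreated (blue) and 3 IPA (red) libraries; the symbol gives the replicate number and the line the group mean. The square of untreated replicate 2 lies far from the other untreated points for most genes, and only for Pgk1 do all IPA points lie below all untreated points.

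Over all 6 libraries the edgeR test called 0 of the 10 genes higher and 0 lower (adjusted p below 0.05), where it called 0% of the 24935 IDs tested in either direction. At an unadjusted p under 0.05 there were 1560 IDs, and limma-voom called 0 of the 10 as well. The log2 fold change of Pgk1 was -0.85 ± 0.35 (SE), or 1.81-fold lower, with a 95% confidence interval of -1.67 to -0.04 and an edgeR adjusted p of 0.657. Tpi1 followed at -0.62 ± 0.30 and the same adjusted p of 0.657 from edgeR. The largest positive value was that of Hk2, at 0.29 ± 0.24 (edgeR adjusted p = 0.698). Gapdh stood at 0.02, with an interval of -0.79 to 0.83. Of the 10 log2 fold changes 5 were positive and 5 negative, where 54.5% of all tested IDs were negative. Their median was -0.03, against -0.08 over all tested IDs. Non-overlapping groups with IPA below, as for Pgk1, were found in 10.7% of the tested IDs, and with IPA above, as for 0 of the 10, in 9.5%.

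Without untreated replicate 2, edgeR again called 0 of the 10 higher and 0 lower, where it called 1.26% of 25592 IDs higher, 2.2% lower and 3.46% in either direction. Of the 10 log2 fold changes 9 were negative, against 54.2% of all tested IDs, with a median of -0.28 against -0.04 over all tested IDs. On library totals in place of TMM, 7 of the 10 were negative, with a median of -0.17 against 0.06 over all tested IDs. Pgk1 again had the most negative value, -0.48 ± 0.15 (SE), or 1.39-fold lower, with an interval of -0.80 to -0.16 and an edgeR adjusted p of 0.0876. Its estimate was thus 1.81-fold lower with untreated replicate 2 and 1.39-fold lower without it. Aldoa, Tpi1 and Pgam1 followed, at -0.35 ± 0.16, -0.34 ± 0.16 and -0.34 ± 0.14 (edgeR adjusted p = 0.252, 0.271 and 0.224). Gapdh stood at -0.29 ± 0.15 (edgeR adjusted p = 0.318) and Eno1 at -0.26 ± 0.15 (edgeR adjusted p = 0.399). The first steps had the values closest to 0, with Hk2 at 0.09, Gpi1 at -0.09 and Pfkl at -0.08, each with a standard error of 0.13 to 0.16. The last enzyme, Pkm, stood at -0.14 ± 0.16. Groups that did not overlap, with IPA below, were found for 2 of the 10, Pgk1 and Pgam1, and for 18.2% of all tested IDs; the share with IPA above was 0 of the 10 against 14%.

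The call on Pgk1 depended on the tool and on the weight of untreated replicate 2, and it was made in 3 of 22 alternatives. Over all 6 libraries without weights, Pgk1 was called neither by limma-voom (adjusted p = 0.597) nor by DESeq2 (adjusted p = 0.444). Without untreated replicate 2, limma-voom gave it an adjusted p of 0.0105, in a comparison that called 4.22% of 25592 IDs lower. DESeq2 gave it one of 0.044, where 3.86% of the 17092 IDs given an adjusted p were lower. Over all 6 libraries, limma-voom with sample quality weights, which count a deviating library less, gave an adjusted p of 0.0456, where 3.03% of IDs were lower. In these settings Pgk1 was the 1 gene of the 10 that was called. Its adjusted p ranged from 0.0105 to 0.998 over 22 alternatives, and its log2 fold change, negative in 22 of 22, from -0.99 to -0.37. The alternatives reuse the same libraries, so they are not separate observations.

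**Figure D2:**
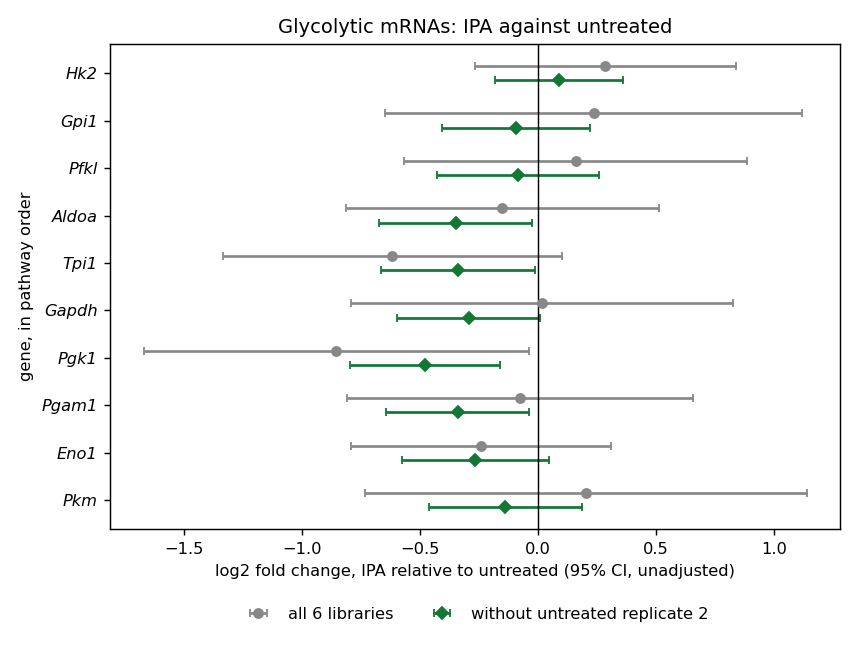
Log2 fold change (horizontal axis, IPA relative to untreated) of each gene with its 95% confidence interval, not adjusted for multiple testing, in the edgeR comparison of all 6 libraries (gray) and of the 5 without untreated replicate 2 (green). Intervals narrow without that library, 9 of the 10 points then lie below 0, and Pgk1 is the most negative in both.

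The size of these differences, and for Gpi1, Pfkl, Tpi1 and Pkm their sign, depended on which of the remaining untreated libraries the IPA group was set against. All 10 genes were higher in untreated replicate 3 than in untreated replicate 1, by 1.11-fold for Hk2 up to 1.56-fold for Tpi1. Of the 4903 tested IDs whose mean reached 50 CPM, a bound chosen after the values were seen, 47.7% were higher in replicate 3. The median absolute log2 difference between these libraries was 0.38 for the 10 genes and 0.20 for the 4903 IDs, on the TMM scale.

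Against untreated replicate 1 alone, the mean log2 level with IPA was higher for 5 of the 10 genes and lower for 5, with a median difference of -0.01. Against untreated replicate 3 alone it was lower for 9 of the 10, all but Hk2, with a median of -0.45. Of the 4903 IDs 47.7% were lower against replicate 1 and 47.7% against replicate 3, and their median differences were 0.02 and 0.01. Pgk1 was below both, by -0.29 against replicate 1 and -0.62 against replicate 3, and so were Aldoa, Gapdh, Pgam1 and Eno1, whose largest difference against replicate 1 was -0.12, for Pgam1. For Pfkl the difference was 0.27 against replicate 1 and -0.35 against replicate 3, and for Tpi1 0.03 and -0.61. These differences have no test, as each sets the IPA group against a single library.

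Among the IPA libraries the ratio of the highest to the lowest level on the TMM scale ran from 1.09 for Pkm to 1.29 for Pfkl. The same ratio over the 3 untreated libraries ran from 1.30 for Eno1 to 2.80 for Pkm, and without untreated replicate 2 from 1.11 for Hk2 to 1.56 for Tpi1. The IPA ratio was below that of the 3 untreated libraries for 10 of the 10 genes and for 90.7% of the 4903 IDs. Without untreated replicate 2 it was still below for 10 of the 10 and for 45.01% of the IDs, though for Hk2 only at 1.107 against 1.108, and for Gpi1 at 1.200 against 1.206. That comparison sets a range over 3 IPA libraries against the difference of untreated replicates 1 and 3 alone. All 10 genes differed between those untreated libraries in the same direction, so they are not 10 separate observations. The median log2 range over the IPA libraries was 0.22 for the 10 genes and 0.23 for the 4903 IDs.

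Untreated replicate 2 departed from untreated replicates 1 and 3 in different directions at different steps. On the TMM scale Pkm was at 0.402 of the geometric mean of the other untreated libraries, Gpi1 at 0.422, Gapdh at 0.458 and Pgam1 at 0.533. Pfkl, Hk2 and Aldoa stood at 0.576, 0.653 and 0.658. Pgk1, at 1.95 times, and Tpi1, at 1.72 times, were higher, and Eno1, at 0.999 times, was level. The median absolute log2 departure was 0.85 for the 10 genes and 0.73 for the 4903 IDs at 50 CPM or more. The TMM factor of this library was 0.754, against 1.02 to 1.11 in the others. On library totals the low genes therefore lie lower still, and the high genes are less high. On that scale Tpi1 stood at 357 CPM in this library and 351 CPM in untreated replicate 3, and Pgk1 at 1536 and 1195 CPM. What sets this library apart was not tested.

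**Figure D3:**
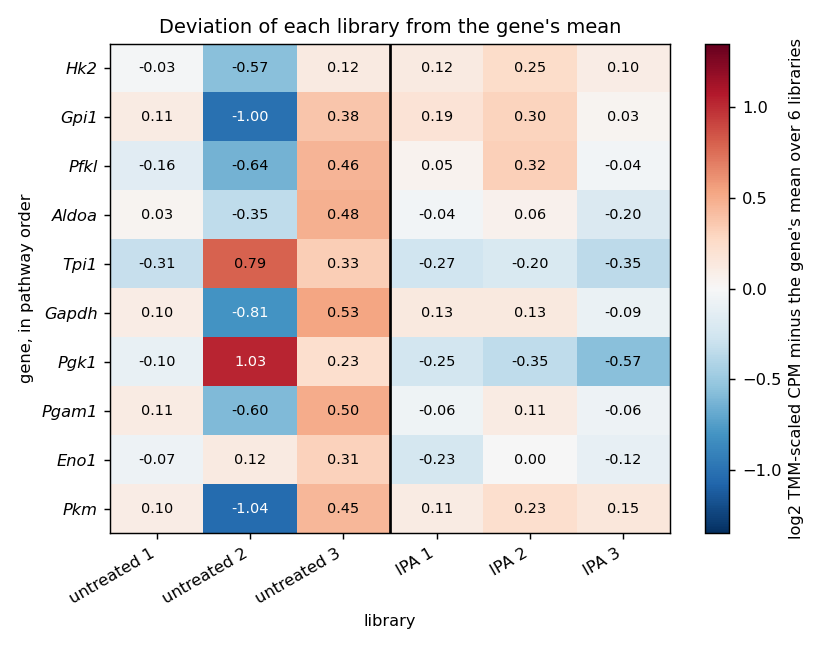
Log2 TMM-scaled CPM of each gene (rows, in pathway order) in each library (columns) minus the gene's mean over the 6 libraries, as a colour scale and as a printed value. The column of untreated replicate 2 holds both the lowest value, -1.04 for Pkm, and the highest, 1.03 for Pgk1, while the column of untreated replicate 3 is above 0 for all 10 genes.

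The makeup of the glycolytic counts gives a view that does not depend on how libraries are scaled to each other. Here each gene is taken as a percentage of the summed counts of the 10 genes in its library, so that a lower share of 1 gene raises those of the others. Pgk1 took 13.02%, 32.4% and 12.7% in untreated replicates 1, 2 and 3, and 12.0%, 10.4% and 10.0% in IPA replicates 1, 2 and 3. Hk2 took 2.31%, 1.80% and 1.98% untreated and 2.62%, 2.66% and 2.69% with IPA. Its share was thus higher in every IPA library than in any untreated one, with a mean of 2.03 ± 0.256% untreated and 2.66 ± 0.036% with IPA (SD, n = 3 each).

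Gpi1 had a share of 13.9%, 7.31% and 12.97% untreated and of 15.0%, 15.0% and 14.1% with IPA, again higher in all IPA libraries. For Pkm the shares were 30.9%, 15.9% and 30.5% untreated and 31.9%, 32.2% and 34.2% with IPA, which also did not overlap. In all, 3 of the 10 genes had a higher share in all IPA libraries and 1, Pgk1, a lower one. Counts relative to the same sum were higher without overlap for 14% of all tested IDs and lower for 4.71%. The shares of the 10 genes are bound to a fixed total and those of the other IDs are not, so this comparison is not like for like.

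Without untreated replicate 2 the same 3 genes were higher, and Aldoa and Pgam1 joined Pgk1 below. The corresponding shares of all tested IDs were 24.3% and 7.09%, with the same limit. Aldoa took 12.0% and 12.7% in untreated replicates 1 and 3 against 10.9% to 11.7% with IPA, and Pgam1 7.28% and 7.39% against 6.63% to 6.92%. These shares are descriptions without a test.

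**Figure D4:**
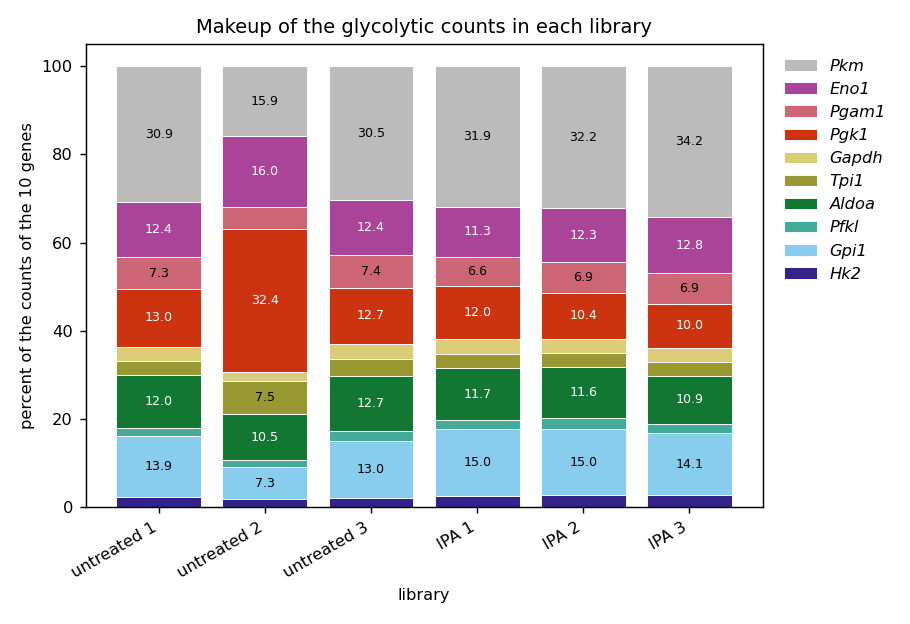
Percentage of the summed counts of the 10 genes (vertical axis) that each gene takes in each library (horizontal axis); shares above 6% are printed in the bars. Pgk1 takes 32.4% in untreated replicate 2 and between 10.0% and 13.02% elsewhere, and the shares of Gpi1 and Pkm are higher in each IPA library than in any untreated one.

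Together the 10 genes took 0.727%, 0.474% and 0.942% of all counts in untreated replicates 1, 2 and 3, and 0.776%, 0.811% and 0.708% in IPA replicates 1, 2 and 3. All 3 IPA values fell inside the untreated range. The means were 0.714 ± 0.234% untreated and 0.765 ± 0.053% with IPA (SD, n = 3 each). The difference between these means, 0.0509 percentage points, was smaller than the spread between the untreated libraries, and it became -0.0693 without untreated replicate 2.

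Several of the 10 genes have close copies in the genome, and no source used here gives the handling of reads that match more than 1 place. The reference table lists, by name, 7 copies of Tpi1, 4 of Aldoa and 3 each of Gapdh and Pgk1. It lists 2 of Pgam1 and 1 of Eno1. Copies not named after their gene were not counted, so these numbers may be too low and do not rank the genes. The counts of at least these 6 genes are uncertain in level. None of the 10 had another ID with counts within 2% in every library, and the nearest, for Hk2, differed by up to 11.5% in a library.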

How the data were processed

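RNA from 3 untreated and 3 IPA-treated 4T1 samples was sequenced on libraries made by a standard Illumina protocol, per the labels. The authors deposited whole-number read counts, not normalized, for each Ensembl ID, per the file headers. GRCm38 and mm10 are the builds in the submitters' processing notes; the aligner, counter, annotation release and strand setting are not given in the sources used. Column names of the treated libraries abbreviate the titles and were matched by letters and number.

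Counts were fitted over all IDs with edgeR 4.0.16 (quasi-likelihood, robust, TMM, filterByExpr; 24935 IDs) in R 4.3.3, and Benjamini-Hochberg adjustment was made over all IDs tested. The standard error is the log2 fold change divided by the square root of F. The procedure was tested on simulated data. The changes put in were 2-fold or 4-fold. Over all 6 libraries the procedure missed most of them, and without untreated replicate 2 it found most of them. Smaller changes were not put in. Without untreated replicate 2 the most negative estimate of the glycolytic genes, that of Pgk1, was 1.39-fold lower, so the recovery of changes of that size was not tested. An absent call in either comparison therefore does not show that levels were equal. Alternatives used DESeq2 1.42.0, limma 3.58.1 (voom), other normalization factors and filters, a replicate block, and left-out samples.

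The 10 names come from the definition of the gene group, and all 10 are described whatever their values. Positions are those of the same symbols in RefSeq on GRCm38.p6. The reference table has 0 rows with an Ensembl ID, so neighbouring pathways (isozymes, glucose and lactate transport, flux switches, pyruvate entry, gluconeogenesis, pentose phosphates, branches, transcription factors) and cell type markers listed by symbol were not analysed here, and no promoter was searched. Members, lists and settings were chosen with earlier results of these data known. Depth of 3410411 to 58924711 counts puts 3 counts at 0.88 to 0.0509 CPM, for counting error only.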

Additional observations from a re-analysis of the deposited data

How the results depend on the processing

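Over all 6 libraries, DESeq2 called 22 IDs higher and 63 lower, library totals 1 higher and 0 lower, no low-count filter 1 and 0, and limma-voom with sample quality weights 492 and 755, with 1 of the 10 genes (Pgk1) lower. With single libraries left out, 0 to 322 IDs were higher and 0 to 564 lower, the counts above 0 being those without untreated replicate 2, and 0 of the 10 genes were called. Their median log2 fold change was then lowest without untreated replicate 2, at -0.28, and highest without untreated replicate 3, at 0.28. Replacing TMM by library totals, the median of all tested IDs moved by 0.21, and that of the 10 genes to 0.13. Without untreated replicate 2 it moved by 0.10. The replicate block gave 0 calls in both directions over 6 libraries and -0.78 for Pgk1 (edgeR adjusted p = 0.842). The labels do not say that the replicate numbers pair samples, so the main comparison used no replicate block. Deviations of same-numbered samples from their group means correlated at -0.0671, 0.0266 and 0.152. These values cannot decide on pairing, since the untreated group mean includes the deviating untreated replicate 2.

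Further settings left out untreated replicate 2 together with another choice. Counts of higher and lower IDs were 719 and 763 without IPA replicate 1 as well, 634 and 660 with DESeq2, 714 and 1081 with limma-voom, 691 and 327 with library totals, 364 and 481 with RLE factors, 309 and 581 with upper-quartile factors, and 136 and 202 with the replicate block, which was added after seeing the data. DESeq2 and limma-voom called 1 of the 10 genes (Pgk1) lower. The median of the 10 genes was -0.29 with limma-voom, -0.29 with upper-quartile factors and -0.32 with the replicate block. The log2 fold changes of Pgk1, Tpi1 and Eno1 were negative and that of Hk2 positive in 22 of 22 alternatives. These alternatives reuse the same libraries, so they are not separate observations. Against untreated replicate 1 alone, the mean log2 level with IPA differed by -0.29 for Pgk1, 0.03 for Tpi1, -0.05 for Eno1 and 0.18 for Hk2.

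The sign of the other 6 genes turned in some settings, in none of which they passed. Over 6 libraries, quality weights gave -0.010 for Gpi1, -0.23 for Gapdh and -0.057 for Pkm, upper-quartile factors -0.014 for Gapdh, and library totals 0.033 for Aldoa and 0.093 for Pgam1. With 1 library left out, Gpi1 ran from -0.092 to 0.53, Pfkl from -0.084 to 0.51, Gapdh from -0.29 to 0.35, Pkm from -0.14 to 0.54, Aldoa from -0.35 to 0.11 and Pgam1 from -0.34 to 0.21. With untreated replicate 2 and IPA replicate 1 left out together, Gpi1, Pfkl, Gapdh and Pkm stood at -0.072, -0.027, -0.30 and -0.085. With untreated replicate 2 left out, the same 4 genes stood at -0.070, -0.061, -0.27 and -0.11 with DESeq2, at -0.11, -0.086, -0.32 and -0.14 with limma-voom, at -0.067, -0.059, -0.27 and -0.11 with RLE factors, at -0.10, -0.094, -0.30 and -0.15 with upper-quartile factors, and at -0.15, -0.18, -0.32 and -0.16 with the replicate block. With library totals Gapdh stood at -0.19 and Pkm at -0.031, while Gpi1, at 0.014, and Pfkl, at 0.020, were positive. For these changes, beyond the libraries left out, the cause was not tested. The difference in the 10 genes' share of counts stayed within the spread between replicates, from -0.0693 to 0.165 percentage points with 1 library left out, and was -0.0487 on TMM-scaled sizes. Depth limits IPA replicate 1 most, yet each of the 10 genes had at least 582 counts there.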
